A study of Mus musculus with 24 samples.

Results

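Collagen prolyl 4-hydroxylase, the collagen lysyl hydroxylases and the disulfide oxidase Ero1a were followed as 7 genes, P4ha1, P4ha2, P4hb, Plod1, Plod2, Plod3 and Ero1a. The members are all probe sets to which the array annotation gives one of these symbols, which were 12 of the 45037 probe sets and 7 of the 18193 genes on the array. Retinas came from BALB/c mice that, per the study's methods, were homozygous for the light-sensitive leucine variant of Rpe65. Hypoxic mice spent 6 h in air with 6% oxygen and were sampled after 0, 2, 4 or 16 h of reoxygenation, which took place in darkness and in room air, and normoxic controls were handled in parallel and sampled at the same 4 times. Each of the 8 groups had 3 arrays, and each array held RNA of 1 pool of 3 retinas from 3 mice, so no value belongs to a single animal. Values are log2 signals from RMA, which removes background, sets the arrays to one common scale and sums up the probes that read a transcript, so that a difference of 1 on this scale is a doubling of the signal. The whole retina was measured, and less of a transcript per cell and fewer cells that carry it cannot be told apart.

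These enzymes act on collagen chains in the endoplasmic reticulum before the chains are secreted. Prolyl 4-hydroxylase is a tetramer of catalytic alpha subunits (P4ha1 or P4ha2) and the beta subunit P4hb, which is also protein disulfide isomerase, and its hydroxyproline keeps the collagen triple helix stable at body temperature. The lysyl hydroxylases Plod1, Plod2 and Plod3 make the hydroxylysine that cross-links and sugar chains attach to, Plod2 mainly in the telopeptides, and Plod3 also transfers sugars. All of these hydroxylases use molecular oxygen, iron, 2-oxoglutarate and ascorbate. Ero1a passes electrons from protein disulfide isomerase to oxygen and thereby reloads it for making new disulfide bonds. Several of the genes are known targets of hypoxia-inducible factor 1 (HIF-1), the transcription factor that is stabilized when oxygen is low.

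HIF-1 binds a short core sequence in its targets, so the promoter windows of 4 members are shown, namely Ero1a and P4ha2, which had the largest rises of the group, P4ha1, which went below its controls during reoxygenation, and Plod3, which passed no test. Each window runs from 250 bases before the start of the gene to 50 after it, on the gene's strand, taken from RefSeq on GRCm38.p6. Capitals mark every ACGTG or GCGTG, read on both strands (CACGT or CACGC when read on the other strand), and no match overlapped another in these windows. They are chr14:45318523-45318822 on the minus strand for Ero1a, chr11:54100674-54100973 on the plus strand for P4ha2, chr10:59323046-59323345 on the plus strand for P4ha1 and chr5:136986769-136987068 on the plus strand for Plod3.
Ero1a: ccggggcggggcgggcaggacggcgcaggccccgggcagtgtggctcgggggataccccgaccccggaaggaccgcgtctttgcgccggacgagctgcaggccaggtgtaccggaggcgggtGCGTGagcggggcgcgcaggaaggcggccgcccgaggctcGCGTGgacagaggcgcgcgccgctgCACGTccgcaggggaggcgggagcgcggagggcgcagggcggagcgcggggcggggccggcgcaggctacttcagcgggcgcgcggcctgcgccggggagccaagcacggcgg
P4ha2: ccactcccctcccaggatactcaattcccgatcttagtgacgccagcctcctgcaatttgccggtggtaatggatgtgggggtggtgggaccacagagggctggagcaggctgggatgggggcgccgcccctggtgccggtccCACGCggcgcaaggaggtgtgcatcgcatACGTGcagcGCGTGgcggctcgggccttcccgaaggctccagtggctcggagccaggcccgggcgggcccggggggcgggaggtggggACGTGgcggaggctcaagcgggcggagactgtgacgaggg
P4ha1: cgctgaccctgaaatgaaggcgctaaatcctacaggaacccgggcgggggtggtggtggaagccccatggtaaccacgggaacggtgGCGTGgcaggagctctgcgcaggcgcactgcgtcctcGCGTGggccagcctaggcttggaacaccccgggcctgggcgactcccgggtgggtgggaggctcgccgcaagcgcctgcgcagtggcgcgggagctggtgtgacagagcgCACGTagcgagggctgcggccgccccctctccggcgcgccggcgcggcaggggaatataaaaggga
Plod3: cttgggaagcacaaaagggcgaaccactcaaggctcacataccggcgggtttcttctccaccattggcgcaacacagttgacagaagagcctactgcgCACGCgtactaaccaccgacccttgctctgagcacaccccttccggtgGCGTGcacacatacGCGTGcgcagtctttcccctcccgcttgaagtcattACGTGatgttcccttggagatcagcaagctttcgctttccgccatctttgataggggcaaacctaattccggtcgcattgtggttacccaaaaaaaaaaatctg
Windows were found for 6 of the 7 genes, all but Plod2. The number of matches was 3 in Ero1a, 4 in P4ha2, 3 in P4ha1, 3 in P4hb, 2 in Plod1 and 4 in Plod3. Of all 32851 windows of this length, 43.8% held at least 1 match (ACGTG in 19.6% and GCGTG in 32.4%), 20.6% held at least 2, 8.93% at least 3 and 3.86% at least 4. Plod3, whose signal did not pass the test, and P4ha2 had 4 matches each, and whether the number of matches goes with the change was not tested. A match is only a run of letters and is not evidence of binding.

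Transcripts of all 7 genes were measured in the retina. Of the 12 probe sets, 11 reached the signal needed for a test (6.69, the minimum between the low and the high peak of all values) at every time point, and the second probe set of Plod1 (1445893_at), at 4.51 to 5.20 in all 24 arrays, never did. The tissue label was borne out by rod photoreceptor genes, whose 8 measured markers averaged 13.04 to 13.37 in every array. The array medians lay between 5.79 and 5.84. Within the normoxic groups, the arrays 0 h replicate 2 and 16 h replicate 3 stood farther from the other arrays than the remaining normoxic ones, and the counts that this touches are also given without them.

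Immediately after hypoxia, 10 of the 11 member probe sets tested were higher in hypoxic than in normoxic retinas and none was lower, which covered 6 of the 7 genes. In the same comparison 32.4% of all 18815 probe sets tested were changed, 15.1% being higher and 17.2% lower. The median change of the members was 0.94 on the log2 scale, against -0.01 for all probe sets tested. The hypoxic and normoxic arrays did not overlap for the same 10 probe sets, where 21.5% of all probe sets had all hypoxic arrays above all normoxic ones. Without the 2 normoxic arrays that stood apart, 8 of the 10 remained called.

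Of the catalytic alpha subunits of prolyl 4-hydroxylase, P4ha2 had the larger change at 0 h, and the difference between both genes was not tested. P4ha2 (1417149_at) had log2 signals of 8.77, 8.71 and 8.62 in the hypoxic pools, against 7.42, 7.40 and 7.62 in the normoxic pools. All hypoxic pools were high, by more than 1 log2 unit over the mean of the controls, and the difference of 1.22 ± 0.11 (SE) is a 2.33-fold rise (adjusted p = 4.87e-08). P4ha1 (1452094_at) read 9.33, 9.09 and 9.04 in the hypoxic pools, against 8.72, 8.67 and 8.70 in the normoxic pools. The normoxic pools lay close together and hypoxic pool 1 was the highest, and the difference was 0.46 ± 0.10, or 1.37-fold (adjusted p = 0.00153). The second probe set of P4ha1 (1426519_at) changed by 0.59 ± 0.18 (adjusted p = 0.0178), and its call was lost without hypoxic pool 1 (0.45, adjusted p = 0.104) or without normoxic pool 2 (0.46, adjusted p = 0.0913).

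The beta subunit changed little. P4hb (1437465_a_at) had 11.08, 11.22 and 11.22 in the hypoxic pools, against 11.08, 10.97 and 10.81 in the normoxic pools at 0 h, so that the lowest hypoxic and the highest normoxic pool nearly touched. The difference of 0.22 ± 0.08 was 1.16-fold and close to the threshold (adjusted p = 0.0404). Its call was lost without hypoxic pool 2 or 3 (0.20 each, adjusted p = 0.115 and 0.123), without normoxic pool 2 (0.23, adjusted p = 0.0705) and without normoxic pool 3 (0.15, adjusted p = 0.212). It was also lost when only the 6 arrays of 0 h were fitted (adjusted p = 0.156). Among the member probe sets tested, P4hb had the highest mean signal over all arrays (11.08), but signals of different probe sets cannot be set against each other as amounts of RNA.

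Of the 3 lysyl hydroxylases, Plod1 and Plod2 rose at 0 h and Plod3 did not pass the test. Plod2, the telopeptide lysyl hydroxylase, read 8.69, 9.08 and 9.02 in the hypoxic pools at 0 h, against 7.63, 8.16 and 7.96 in the normoxic pools (1416687_at). The difference was 1.02 ± 0.15, or 2.02-fold (adjusted p = 2.52e-05), and the second probe set (1416686_at) gave 0.94 ± 0.11 (adjusted p = 1.12e-06). Against the mean of all 12 normoxic arrays, which is described further on, the changes of both probe sets were smaller (0.61 and 0.62). Plod1, the lysyl hydroxylase of the helical part of the chain, read 7.89, 7.93 and 7.95 in the hypoxic pools, against 7.39, 7.19 and 7.23 in the normoxic pools, a difference of 0.66 ± 0.10 (1.58-fold, adjusted p = 2.15e-05). The 3 hypoxic pools of Plod1 were nearly equal and all lay above the normoxic ones. Plod3, which also has glycosyltransferase activity, had 8.39, 8.43 and 8.34 in the hypoxic pools, against 8.33, 8.40 and 8.28 in the normoxic pools. These overlapped, and the difference of 0.05 ± 0.08 did not pass the test (adjusted p = 0.63), with a 95% interval from -0.10 to 0.21. The intervals began at 0.46 for Plod1 and at 0.70 and 0.72 for Plod2. Plod3 was the only gene of the 7 with no called probe set at 0 h.

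Ero1a gave the largest changes of the group. Its probe set 1449324_at had 10.49, 10.33 and 10.32 in the hypoxic pools at 0 h, against 9.06, 9.13 and 9.00 in the normoxic pools. The gap between the groups was far wider than the spread within them, and the difference of 1.32 ± 0.11 was a 2.49-fold rise (adjusted p = 2.05e-08) and stood 140th among the 18815 probe sets tested, counted from the highest change. The other probe sets of Ero1a gave 1.25 ± 0.13 (1419030_at, adjusted p = 2.96e-07) and 1.36 ± 0.13 (1419029_at, adjusted p = 1.57e-07), so that all 3 lay within their errors of each other. P4ha2 stood 170th and the main probe set of Plod2 290th in the same order, whereas P4ha1 stood 1429th and P4hb 3889th.

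**Figure D1:**
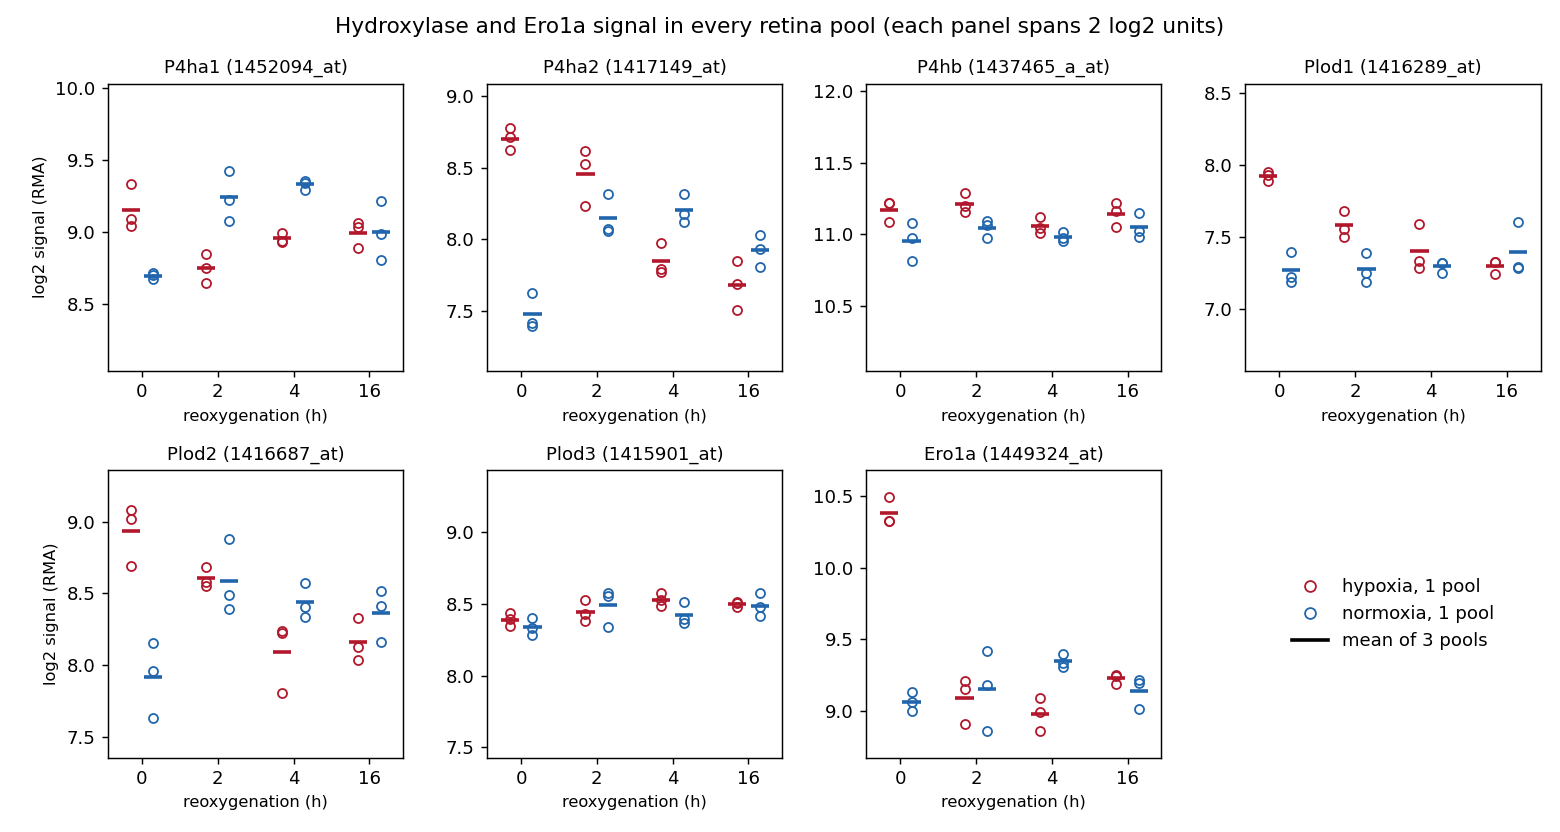
Log2 RMA signal (vertical axis, each panel spanning 2 log2 units) of the probe set with the highest mean for each of the 7 genes at 0, 2, 4 and 16 h of reoxygenation (horizontal axis); circles are single pools, bars the mean of 3 pools, red hypoxia and blue normoxia. At 0 h the hypoxic pools of Ero1a lie between 10.32 and 10.49, above all others, whereas the pools of Plod3 overlap at every time, and the normoxic pools of P4ha1, P4ha2 and Plod2 are lower at 0 h than at 2 or 4 h.

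Markers of other cell types moved at the same time point. All 7 tested markers of the retinal pigment epithelium, the pigmented layer behind the retina, were higher in hypoxic retinas at 0 h, by 0.32 to 3.75, and the mean over the 11 markers was 8.17 to 8.27 in the hypoxic pools, against 5.94 to 6.32 in the normoxic pools. Best1, Lrat, Slc6a20a and Tyr, the other 4, were below the signal threshold in both groups, and Rpe65 had means of 9.26 in hypoxic and 5.78 in normoxic retinas. Of the 11 markers, 9 had a normoxic mean below the threshold at 0 h, and 4 a hypoxic mean below it. Most of the 7 were thus tested only through the hypoxic group, which favours calls upwards. Among all probe sets tested at 0 h, 15.1% were higher. For fibroblasts, the collagen-producing cells of sclera and choroid, 1 of 5 tested markers was higher (Pdgfra, 0.63), and the mean over 10 markers was 6.10 to 6.47 in the hypoxic pools, against 6.07 to 6.16 in the normoxic pools. The fibroblast markers Col1a1, Col3a1, Dcn, Dpt and Lum were below the threshold in both groups. Lens markers ranged from 10.85 to 12.90 in the hypoxic pools and from 7.80 to 11.89 in the normoxic pools, with 0 of 14 called by limma and 11 higher at an unadjusted p under 0.05. The part of these tissues in the member changes was not tested.

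After 2 h of reoxygenation the members no longer moved together. Of the 11 probe sets tested 1 was higher and 1 lower, where 16.6% of all 18606 probe sets were changed (9.19% higher and 7.37% lower), and the median change was 0.02, against 0.01 for all. P4ha1 (1452094_at), the catalytic subunit, was now below its controls, with 8.64, 8.75 and 8.84 in the hypoxic pools, against 9.08, 9.42 and 9.22 in the normoxic pools. The groups did not overlap and the difference was -0.50 ± 0.10 (adjusted p = 0.00255), a signal of 70.9% of that in normoxia. The second P4ha1 probe set (1426519_at) had a difference of -0.42 ± 0.18 that did not pass (adjusted p = 0.123), but passed without normoxic pool 1 (-0.60, adjusted p = 0.0452). Plod1 was the one that was higher, with 7.50, 7.68 and 7.56 in the hypoxic pools, against 7.25, 7.39 and 7.19 in the normoxic pools (0.31 ± 0.10, adjusted p = 0.0327). The call of Plod1 was lost without hypoxic pool 1 (0.345, adjusted p = 0.0508), pool 2 (0.26, adjusted p = 0.117) or pool 3 (0.32, adjusted p = 0.0664) and without normoxic pool 1 (0.29, adjusted p = 0.084) or pool 3 (0.26, adjusted p = 0.125).

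P4ha2 still lay 0.31 ± 0.11 above its controls at 2 h, with 8.23, 8.61 and 8.53 in the hypoxic pools and 8.07, 8.31 and 8.06 in the normoxic pools. These overlapped and the difference did not pass (adjusted p = 0.0605), whereas it passed without hypoxic pool 1 (0.42, adjusted p = 0.0252) or normoxic pool 2 (0.39, adjusted p = 0.0366). Ero1a, the disulfide oxidase, had 9.21, 8.91 and 9.15 in the hypoxic pools, against 8.86, 9.18 and 9.42 in the normoxic pools, and its 3 probe sets had differences of -0.08 to 0.07 (adjusted p = 0.715 to 0.784). Both probe sets of Plod2 were within 0.11 of their controls (0.02 and 0.11, adjusted p = 0.954 and 0.556). P4hb had no overlap between the groups, with 11.15 to 11.29 in the hypoxic pools and 10.98 to 11.10 in the normoxic pools, but the difference of 0.17 ± 0.08 did not pass (adjusted p = 0.16). In total 2 probe sets had all hypoxic arrays above the normoxic ones and 1 had them below, which 19.8% and 14.9% of all probe sets had. Markers of the pigment epithelium averaged 6.97 to 7.96 in the hypoxic pools and 6.26 to 7.27 in the normoxic pools at 2 h, with 0 of 7 called by limma, 5 having an unadjusted p under 0.05, and their part was not tested.

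At 4 h most members lay below the controls of that time, but only 1 probe set passed the test and the differences were smaller or turned when all 12 normoxic arrays served as controls. The median change was -0.35, against 0.02 for all, and 8 of the 11 probe sets had all hypoxic arrays below all normoxic ones, which 10.2% of all probe sets had. None had them above, which 17.1% of all probe sets had. These 8 were both of P4ha1, that of P4ha2, both of Plod2 and all 3 of Ero1a. P4ha1 (1452094_at) read 8.93, 8.99 and 8.94 in the hypoxic pools, against 9.29, 9.34 and 9.36 in the normoxic pools, a difference of -0.38 ± 0.10 that did not pass (adjusted p = 0.0668). The one that passed, where 1.42% of all 18527 probe sets were changed (0.874% higher and 0.545% lower), was 1419030_at of Ero1a, with 8.20, 8.44 and 8.45 in the hypoxic pools, against 8.77, 8.84 and 9.03 in the normoxic pools (-0.52 ± 0.13, adjusted p = 0.0473). This call was close to the threshold and was lost when any one array of 4 h was left out. The values were -0.43 (adjusted p = 0.249), -0.55 (0.0823) and -0.56 (0.0841) without hypoxic pool 1, 2 or 3. Without normoxic pool 1, 2 or 3 they were -0.57 (adjusted p = 0.078), -0.53 (0.0811) and -0.44 (0.202). The other probe sets of Ero1a, at -0.37 and -0.31, did not pass (adjusted p = 0.103 and 0.267), nor did P4ha2 at -0.36 (adjusted p = 0.112) and Plod2 at -0.35 and -0.24 (adjusted p = 0.262 and 0.296). Before adjustment, 2881 of all 18527 probe sets had p under 0.05 in limma, 1053 of them lower. Of the 11 member probe sets, 8 had p under 0.05, all of them lower. Against all 12 normoxic arrays these 8 had values of -0.11 and 0.12 (P4ha1), -0.09 (P4ha2), -0.24 and -0.07 (Plod2) and -0.20, -0.18 and 0.04 (Ero1a), with 1 of them at an unadjusted p under 0.05. Markers of the pigment epithelium averaged 6.71 to 7.43 in the hypoxic pools and 6.30 to 7.01 in the normoxic pools at 4 h, and lens markers 11.11 to 12.17 in the hypoxic pools and 11.97 to 12.45 in the normoxic pools, with 0 of either list called by limma or at an unadjusted p under 0.05. Fibroblast markers averaged 6.38 to 6.63 in the hypoxic pools and 6.54 to 6.68 in the normoxic pools, with a median change of -0.32 over the 5 tested, of which limma called 0 and 1 was lower at an unadjusted p under 0.05. Of 5 tested endothelial markers 1 was lower, the receptor Kdr (-0.54, adjusted p = 0.0379), and the list averaged 7.39 to 7.40 in the hypoxic pools and 7.36 to 7.48 in the normoxic pools. This was not particular to 4 h, since 1 of 5 endothelial markers was also lower at 0 h and at 2 h. The part of these tissues was not tested.

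After 16 h, 0 of the 11 member probe sets were called by limma, and the count over all 18446 probe sets was 0 (0.0%) too. Before adjustment, P4ha2 (-0.24 ± 0.11) was the 1 member with p under 0.05, beside 1173 of all probe sets. The methods' t-test called 0 members after adjustment. No member had groups that did not overlap, where 6.87% of all probe sets had all hypoxic arrays higher and 4.18% had them lower. The differences ran from -0.24 for P4ha2 to 0.27 for 1419030_at of Ero1a. P4ha1 read 8.89, 9.06 and 9.03 in the hypoxic pools, against 8.81, 9.21 and 8.98 in the normoxic pools, and Ero1a (1449324_at) read 9.25, 9.19 and 9.25 in the hypoxic pools, against 9.01, 9.22 and 9.20 in the normoxic pools.

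**Figure D2:**
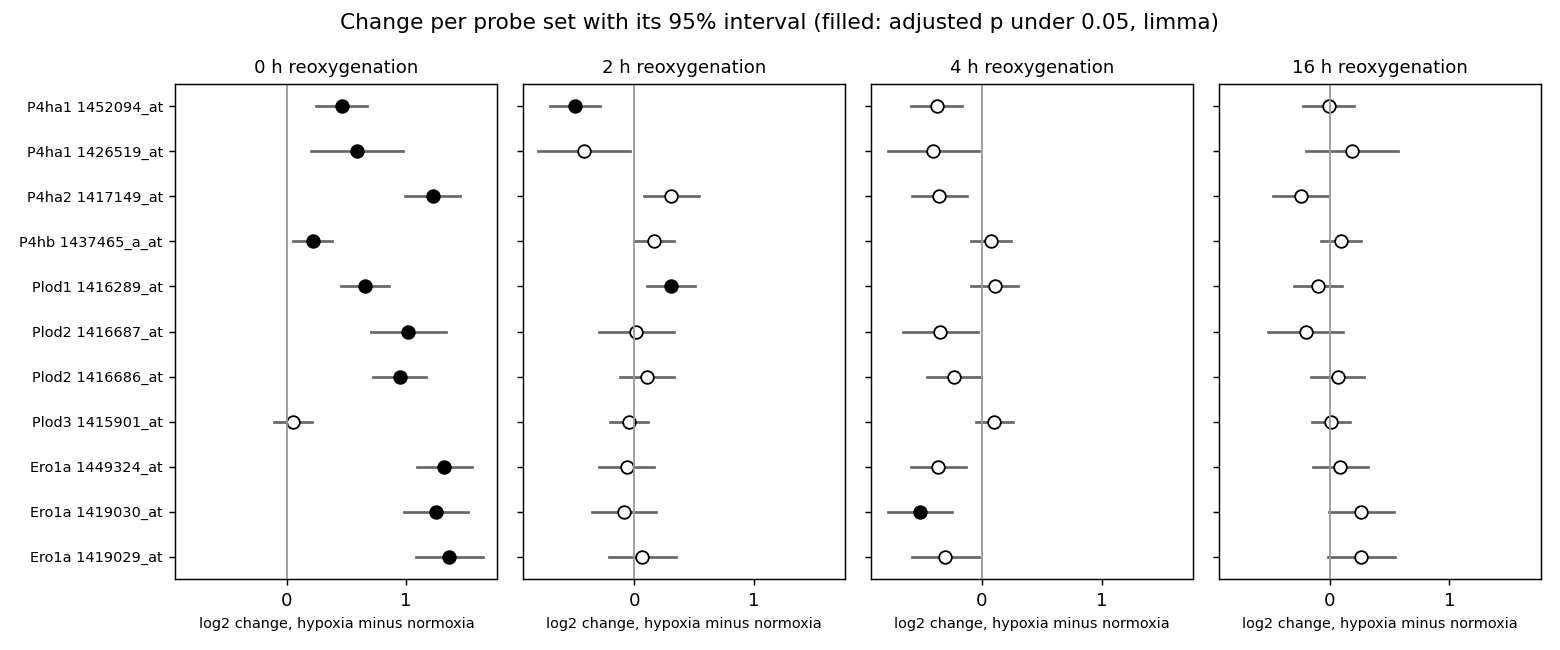
Log2 change of hypoxia against normoxia (horizontal axis) with its 95% interval for the 11 tested member probe sets (rows) at 0, 2, 4 and 16 h; filled points passed an adjusted p of 0.05. All but Plod3 are filled and to the right at 0 h, whereas at 2 h Plod1 is filled on the right and P4ha1 on the left, at 4 h 1 probe set of Ero1a is filled on the left, and at 16 h none is filled.

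The effect of hypoxia was tested for a change over time in the same model. Between 0 and 2 h it differed for 8 of the 11 probe sets, all downwards, where 8.22% of all probe sets differed. Ero1a had the largest difference, with effects of -0.06 at 2 h and 1.32 at 0 h for 1449324_at (difference -1.38 ± 0.16, adjusted p = 1.97e-05). P4ha1, which crossed its controls, had effects of -0.50 at 2 h and 0.46 at 0 h (difference -0.95 ± 0.14, adjusted p = 0.00027). P4ha2 differed by -0.91 ± 0.16 and the main probe set of Plod2 by -0.999 ± 0.213. For Plod1 the effects of 0.31 at 2 h and 0.66 at 0 h were not shown to differ (-0.35 ± 0.14, adjusted p = 0.122), nor were those of P4hb (-0.05 ± 0.11, adjusted p = 0.864) and Plod3 (-0.10 ± 0.11, adjusted p = 0.665). The second probe set of P4ha1 differed by -1.01 ± 0.26, a call lost without hypoxic pool 1 of 0 h (-0.87, adjusted p = 0.0658).

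Between 0 and 4 h the effect differed for 9 of the 11 probe sets, where 16.9% of all did, with Plod1 added at -0.55 ± 0.14 (adjusted p = 0.0072). The difference was -1.58 ± 0.16 for P4ha2 and -1.68 ± 0.16 for 1449324_at of Ero1a. Between 2 and 4 h limma called 0 members (0.486% of all probe sets), and P4ha2 came closest (-0.66 ± 0.16, adjusted p = 0.0603). At an unadjusted p under 0.05 there were 3 members, all downwards, beside 2039 of all 18926 probe sets, 856 of them downwards. Between 4 and 16 h limma also called 0 members (0.122% of all probe sets), and the difference of 1419030_at of Ero1a was 0.78 ± 0.18 (adjusted p = 0.105). Here 5 members had an unadjusted p under 0.05, all upwards, beside 1520 of all 18842 probe sets, 751 of them upwards. The comparisons at different times share no arrays, but 2 differences that share a time share its 6 arrays.

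The normoxic controls of the members were themselves not level over the 4 time points. An F test over the 4 normoxic groups called 7 of the 11 probe sets, where 3.54% of all did. P4ha1 averaged 8.70, 9.24, 9.33 and 9.00 in the normoxic groups of 0, 2, 4 and 16 h (SD 0.02, 0.17, 0.04 and 0.20, n = 3 each, adjusted p = 0.0056), so the controls of 0 h were the lowest. P4ha2 averaged 7.48, 8.15, 8.20 and 7.92 in the same order (adjusted p = 0.00339). Plod2 (1416687_at) averaged 7.92, 8.59, 8.44 and 8.36 (adjusted p = 0.0457), whereas Plod1, Plod3, P4hb and 1449324_at of Ero1a did not pass (adjusted p = 0.357 to 0.801). Both other probe sets of Ero1a (1419030_at and 1419029_at) passed, as did 1426519_at of P4ha1. Their lowest normoxic means were those of 16 h (8.30, 7.33 and 8.02) and their highest those of 4 h (8.88, 8.02 and 8.88). These 7 calls were fragile: 2 remained without both normoxic arrays that stood apart and 1 with the 12 normoxic arrays alone in the fit. It was 4 without normoxic pool 1, 2 or 3 of 0 h, pool 1 of 4 h or pool 3 of 16 h, and 3 without normoxic pool 2 or 3 of 4 h.

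Each time point was therefore also compared with the mean of all 12 normoxic arrays, a comparison added after the data were seen. At 0 h it kept 8 of the 10 calls, all higher, with 48.6% of all probe sets changed. The calls lost were those of P4ha1, at 0.09 ± 0.08 (adjusted p = 0.388) and 0.29 ± 0.15 (adjusted p = 0.11), against 0.46 and 0.59 with the controls of 0 h. P4ha2 kept 0.76 ± 0.09 of its 1.22 and Plod2 0.61 ± 0.12 of its 1.02, whereas Ero1a, at 1.20 ± 0.09, and Plod1, at 0.62 ± 0.08, were little moved. P4ha1 (1452094_at) in the hypoxic pools of 0 h, at 9.15 on average, was in fact below the normoxic means of 2 and 4 h, though its arrays overlapped those of both times. The second P4ha1 probe set (1426519_at), at 8.64, was above the normoxic mean of 2 h (8.47) and below that of 4 h (8.88), with overlap in both. At 2 h the same comparison called 5 members (30.8% of all probe sets), with P4ha1 lower (-0.32 ± 0.08, adjusted p = 0.0046) and Plod1, P4ha2, P4hb and 1416686_at of Plod2 higher (0.27, 0.52, 0.20 and 0.31). At 4 h it called 0 members (7.33% of all), with 1 at an unadjusted p under 0.05, and -0.18 ± 0.10 for 1419030_at of Ero1a (adjusted p = 0.314), and at 16 h 0 (0.038% of all), with 2 at an unadjusted p under 0.05. The lens markers were also lower in the normoxic pools of 0 h (7.80 to 11.89) than in those of 2 h (12.54 to 12.75), and the fibroblast markers (6.07 to 6.16 against 6.45 to 6.72), and whether this bears on the member levels was not tested.

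**Figure D3:**
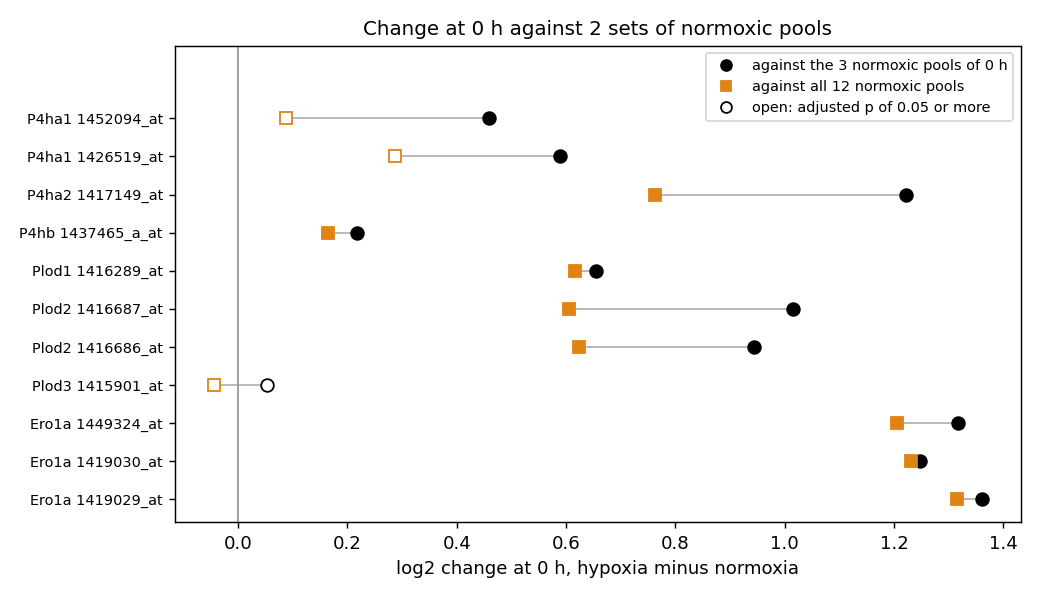
Log2 change at 0 h (horizontal axis) of the 11 tested member probe sets (rows) against the 3 normoxic pools of 0 h (black circles) and against all 12 normoxic pools (orange squares); open symbols had an adjusted p of 0.05 or more. Both probe sets of P4ha1 turn open against all 12 pools, at 0.09 and 0.29, whereas the 3 of Ero1a stay above 1.20.

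Over the 8 groups the hypoxic retinas of 0 h had the highest mean for 7 of the 11 probe sets, those of P4ha2, Plod1, Plod2 and Ero1a, and in all 7 every array of that group was above every array of the next. For P4ha2, Plod1 and Plod2 the next group was the hypoxic retinas of 2 h, and for Ero1a it was the normoxic retinas of 4 h, with means of 10.38 in hypoxic retinas of 0 h and 9.35 in normoxic retinas of 4 h for 1449324_at. P4ha1 was highest in the normoxic retinas of 4 h (9.33 for 1452094_at), P4hb in the hypoxic retinas of 2 h (11.21) and Plod3 in those of 4 h (8.53). Of the 77 pairs of groups next to each other in these orders, 65 overlapped in their arrays. Neither count was made over all probe sets, so whether such orders are particular to the members was not tested.

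Tested probe sets of 1 gene tracked each other over the 24 arrays, with Pearson r of 0.91 to 0.95 between those of Ero1a, 0.90 for Plod2 and 0.78 for P4ha1. Spearman rank correlations were 0.64 to 0.77 for Ero1a, 0.91 for Plod2 and 0.79 for P4ha1. The 2 probe sets of Plod1, of which 1 stayed below the signal threshold, had r = -0.003. Among genes, P4ha2 and Plod2 were the most alike (r = 0.88 and 0.90 for the 2 probe sets of Plod2), while Ero1a (1449324_at) had 0.61 with P4ha2, 0.70 with Plod1 and 0.40 with P4ha1. By Spearman rank correlation that order turned, with 0.45 for P4ha2, 0.16 for Plod1 and 0.56 for P4ha1, whereas P4ha2 and Plod2 kept 0.94 and 0.91. These are descriptions over arrays that share the 8 groups, so a common step at 0 h raises them. Over all 17560 probe sets searched, a gene with several was ranked by the one with the highest r. The genes most like Ero1a were Slc19a2 (r = 0.95), Ppp1r3g and Jmjd6 (0.94 each), and those most like P4ha2 were Zbtb8b (0.95), Tpm4 (0.94) and Timp3 (0.91). P4ha1 was most like Hspa5 (0.82), the main chaperone of the endoplasmic reticulum, then Klc1 (0.79) and Slc2a1 (0.72). Plod2 was most like P4ha2 (0.88), Prkab2 (0.87) and Tpm4 (0.86), Plod1 like Fiz1 (0.91), Rhou (0.90) and Surf4 (0.89), P4hb like Usf2 (0.86), Vapb (0.84) and Dnajc5 (0.83), and Plod3 like Gtf2ird1 (0.74), Mindy2 (0.73) and Diaph1 (0.70).

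Of 10 further collagen hydroxylases and partners, 6 were tested at 0 h, and 0 were higher and 1 was lower, where 15.1% of all probe sets were higher and 17.2% lower. That was Colgalt1, the galactosyltransferase that acts on hydroxylysine, with means of 8.44 in hypoxic and 9.17 in normoxic retinas at 0 h (-0.73, adjusted p = 5.89e-06) and 8.49 and 9.18 at 2 h (-0.69). Crtap, the helper of prolyl 3-hydroxylase, changed by -0.02 at 0 h and was lower at 2 h (-0.48, adjusted p = 0.0139). The call of Crtap was lost without hypoxic pool 1 (-0.35), normoxic pool 1 (-0.43) or normoxic pool 2 (-0.42) of 2 h, and its change was -0.29 against all 12 normoxic arrays. P4ha3, the third alpha subunit, and the prolyl 3-hydroxylases P3h1, P3h2 and P3h3 were below the signal threshold at 0 h, and Ppib (0.17, adjusted p = 0.0971) and P4htm (-0.02, adjusted p = 0.872) did not pass.

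Of 20 tested oxidoreductases of the endoplasmic reticulum that make or pass on disulfide bonds, as Ero1a and P4hb do, 4 were higher and 5 lower at 0 h (32.4% of all probe sets changed), and 4 were higher and 1 lower at 2 h (16.6% of all). Qsox1, a sulfhydryl oxidase that works without Ero1a, was higher at 0 h (0.78) and at 2 h (0.38), the second call being lost without hypoxic pool 3 (0.33), normoxic pool 1 (0.30) or normoxic pool 2 (0.33). Prdx4, a peroxiredoxin that uses hydrogen peroxide for the same end, was higher at both times (0.41 and 0.59). The isomerase Pdia5 (-0.39) and the vitamin K reductase Vkorc1 (-0.36) were lower at 0 h, that of Vkorc1 not without normoxic pool 1 (-0.28, adjusted p = 0.0564). At 2 h Pdia6 was lower (-0.31) and Qsox2 higher (0.30). The call of Pdia6 was lost without hypoxic pool 1 (-0.28) or 3 (-0.31) or normoxic pool 2 (-0.28) or 3 (-0.32), and that of Qsox2 without hypoxic pool 1 (0.27) or 3 (0.28) or normoxic pool 1 (0.27) or 2 (0.28).

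Among 10 tested chaperones, processing enzymes and cross-linking enzymes of collagen, 3 were higher and 2 lower at 0 h, and 1 was higher and 3 were lower at 2 h. Fkbp7, a prolyl isomerase of the endoplasmic reticulum, was higher at 0 h (0.82) and 2 h (0.40), and the second call was lost without hypoxic pool 1 (0.30) or 3 (0.39) or normoxic pool 1 (0.32). The normoxic means of Fkbp7, 6.59 at 0 h and 6.58 at 2 h, were below the signal threshold. It was therefore tested only through the hypoxic group, which favours calls upwards. Loxl1, a lysyl oxidase that cross-links elastin and collagen, was higher at 0 h (0.63), but not without hypoxic pool 1 (0.54) or normoxic pool 3 (0.56). Pcolce, which enhances the cleavage of procollagen, was higher (0.64, adjusted p = 0.0424), but not without hypoxic pool 1 (0.63) or 2 (0.49) or any one of the normoxic pools (0.69, 0.65 and 0.57). Against all 12 normoxic arrays Loxl1 and Pcolce lost their calls (0.05 and 0.14). Tmem38b, an ion channel of the endoplasmic reticulum, was lower (-0.41). At 2 h Adamts3, which cleaves procollagen, was lower (-0.56), as were the isomerase Fkbp14 (-0.45) and Serpinh1, the collagen chaperone Hsp47 (-0.46). The call of Serpinh1 was lost without hypoxic pool 1 (-0.32) or 3 (-0.49) or normoxic pool 1 (-0.47) or 2 (-0.35), and against all 12 normoxic arrays (-0.21). Over the 3 lists together, 15 of 36 tested genes were called at 0 h, 7 of them higher and 8 lower, and 11 of 37 at 2 h, beside the 32.4% and 16.6% of all probe sets called at these times. At 2 h the count was 5 without hypoxic pool 1 or 3 or normoxic pool 1 or 2. At 4 h it was 1, Prdx4 (0.43, adjusted p = 0.0491), and 0 without any one of the 6 arrays.

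The substrates of the hydroxylases, the collagen chains, were called higher for 5 and lower for 0 of 19 tested at 0 h, where 32.4% of all probe sets were called. Both chains of basement membrane collagen IV were among them, Col4a1 with means of 10.61 in hypoxic and 9.41 in normoxic retinas (1.20) and Col4a2 with 9.23 and 8.25 (0.98). Both shrank without normoxic pool 2 of 0 h, to 0.76 and 0.60, and Col4a2 then lost its call (adjusted p = 0.0721). Against all 12 normoxic arrays they changed by 0.12 and 0.11 and neither passed (adjusted p = 0.689 and 0.702). Col19a1 (0.84) and Col8a1 (0.64) were also higher, and against all 12 normoxic arrays Col19a1 changed by 1.53 and Col8a1 by 0.63. Col8a1 had means of 7.14 in hypoxic and 6.50 in normoxic retinas at 0 h. Its normoxic mean was below the signal threshold, so it was tested only through the hypoxic group. At 2 h, 1 of 18 was higher, Col19a1 (1.06), and 1 lower, Col18a1 (-0.55), beside 9.19% and 7.37% of all probe sets. The call of Col18a1 was lost without hypoxic pool 1 (-0.36) or normoxic pool 2 (-0.45).

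Of 20 tested HIF-1 targets outside the group, 18 were higher and 0 lower at 0 h, with a median change of 0.75. Of all probe sets, 15.1% were higher and 17.2% lower at 0 h. The largest changes were those of Adm (1.79), Egln1, the hydroxylase that marks HIF-1 for decay (1.70), Ak4 (1.40) and Bnip3 (1.20). Adm had means of 7.06 in hypoxic and 5.26 in normoxic retinas at 0 h. Its normoxic mean was below the signal threshold, so Adm was tested only through the hypoxic group, which favours calls upwards. The probe sets used for Adm (_x_at) and Ak4 (_s_at) are of the kinds treated as cross-reacting in an alternative listed further on. At 2 h, 3 of 18 HIF-1 targets were higher and 3 lower, beside 9.19% and 7.37% of all probe sets. The higher ones included Bnip3 (0.70) and Pdk1 (0.52), and the lower ones Ddit4 (-0.75) and Ankrd37 (-0.71). The call of Ddit4 was lost without hypoxic pool 2 (-0.47) or normoxic pool 3 (-0.52). The list was chosen as known targets with results of these data in view, so its direction at 0 h is no independent evidence. For the unfolded protein response, which rises when folding in the endoplasmic reticulum fails, 8 of 22 tested genes were higher and 2 lower at 0 h, beside 15.1% and 17.2% of all probe sets. Those with the largest changes were the transcription factors Atf3 (0.86), Ddit3 (0.83) and Atf4 (0.59) and the pseudokinase Trib3 (0.67). The hypoxic and normoxic arrays of Atf3 overlapped (SD 0.68 and 0.30). The calls of Atf3 and Ddit3 were not kept under every alternative that is listed further on. At 2 h, 0 of 23 were higher by limma (3 at an unadjusted p under 0.05) and 4 were lower, beside 9.19% and 7.37% of all probe sets. The 4 were Xbp1 (-0.40), Creld2 (-0.29), Manf (-0.28) and Hspa5 (-0.27). The call of Hspa5 was lost without any one of the 6 arrays (-0.31 to -0.20) and that of Manf without hypoxic pool 1 or 3 or any one normoxic pool (-0.32 to -0.25). That of Creld2 was lost without hypoxic pool 1 (-0.24) or 3 (-0.29) or normoxic pool 2 (-0.23).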

How the data were processed

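RNA of 24 retina pools was hybridised to Affymetrix mouse arrays. The authors made the deposited log2 values with RMA, whose version is not given in the sources used here. Their own gene lists rest on GCRMA values, which were not used. Arrays give no read depth, and their number limits the precision. Of 45101 probe sets, 64 controls were left out. Following the study's methods, tests at each time were limited to probe sets for which the mean of either treatment reached 6.69, the minimum between the density peaks at 3.80 and 7.91. One mean per group was fitted to all arrays with limma 3.58.1 in R 4.3.3 (16 residual degrees of freedom, eBayes), and p-values were adjusted after Benjamini-Hochberg over all probe sets tested. A change was called at an adjusted p under 0.05. The code was tested on simulated data.

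Symbols came from the array annotation, which gives 1 gene to 34945 probe sets, several to 932 and none to 9160. For a listed gene, the probe set with the highest mean over all arrays was used. All member probe sets are named, and from each list up to 4 called genes with the largest change at 0 h and at 2 h, and a few further genes of the lists were named after their values were seen. The members and lists were chosen with earlier results of these data known. Pairing by replicate number was not used, because after removal of group means, hypoxic and normoxic arrays of one number correlated at -0.26 to 0.22, with 4 of 12 pairs above 0.1. Alternatives were no filter or a stricter one, quantile or median normalization, a trended and robust spread, array weights, a replicate block, only the arrays compared, the methods' t-test, a threshold of 0.1, leaving out cross-reacting probe sets (_x_at, _s_at), the mean of a gene's probe sets, leaving out arrays and, added after the data were seen, all 12 normoxic arrays as controls.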

Additional observations from a re-analysis of the deposited data

Results flagged for a closer look

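The effect of hypoxia, hypoxia minus normoxia on the log2 scale, differed between time points for members, tested as a contrast in limma. The differences at 2 h minus 0 h were -0.95 and -1.01 for the 2 probe sets of P4ha1, -0.91 for P4ha2, -0.999 and -0.84 for those of Plod2, and -1.38, -1.33 and -1.29 for those of Ero1a. The differences at 4 h minus 0 h were -0.84 and -0.99 for P4ha1, -1.58 for P4ha2, -0.55 for Plod1, -1.36 and -1.18 for Plod2, and -1.68, -1.76 and -1.67 for Ero1a. In every one of these the effect was positive at 0 h. At 4 h it was negative for all of them but Plod1 (0.11 ± 0.10), and at 2 h it was past the threshold on the negative side for 1452094_at of P4ha1 alone. The normoxic means of P4ha1, P4ha2 and Plod2 were lowest or nearly lowest at 0 h, and the part of the controls in these differences was not tested apart from the comparison with all 12 normoxic arrays. No gap test for a single outlying value was made, since each group had 3 arrays.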

How the results depend on the processing

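Of 2185 member values under alternatives, 2043 kept direction and side of the threshold, 83 lost their call, 22 gained one and 37 changed sign with no call on either side. Member counts at 0 h were 8 to 10 in all alternatives. The cause of the changes below was not tested. Member calls at 2 h (2) were 1 with no signal filter, with a stricter one and with only the arrays compared, 0 with the methods' t-test and 5 against all 12 normoxic arrays, and at 4 h (1) they were 0 with no filter, only the arrays compared, the t-test and all 12 normoxic arrays, 2 with quantile normalization, the trended and robust spread or a threshold of 0.1, and 3 with array weights. Members whose effect differed between 2 and 4 h (0) were 1 with quantile normalization, trended spread, weights or a threshold of 0.1, and between 4 and 16 h (0) 1 with trended spread. Members that differed among normoxic groups (7) were 4 with no filter or with weights, 2 without the 2 normoxic arrays and 1 with the normoxic arrays alone. Genes called in the 3 pathway lists were at 0 h (15) 5 with the t-test and 9 with the mean of the probe sets, at 2 h (11) 3 with only the arrays compared, 0 with the t-test and 5 with the mean, and at 4 h (1) 0 with no filter, quantile or median normalization, only the arrays compared, the t-test or the mean, 3 with trended spread or all 12 normoxic arrays, 4 with a threshold of 0.1 and 5 with weights.

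With a replicate block over all time points the members called were 10, 3, 1 and 0 at 0, 2, 4 and 16 h, with 1 effect that differed between 2 and 4 h. With a replicate block within each time point they were 9, 4, 0 and 0, and the pathway genes called at 4 h were 0. Leaving out 1 array in turn gave 8 to 10 member calls at 0 h, 1 to 3 at 2 h, 0 at 4 h and 0 at 16 h, 7 to 8 differing effects for 0 and 2 h, 9 for 0 and 4 h and 0 for the other intervals, 3 to 7 for the normoxic groups, and 10 to 12, 5 to 13, 0 and 0 pathway genes at the 4 times.

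Signs changed for values that were not called. Against all 12 normoxic arrays they were -0.044 (0 h) and 0.0097 (2 h) for Plod3, 0.041 (4 h) and -0.069 (16 h) for Ero1a 1419029_at, and 0.12 (4 h) and -0.15 (16 h) for P4ha1 1426519_at, of which those at 4 h were -0.31 and -0.41 in the main analysis, with groups that did not overlap. With quantile normalization they were -0.0028 for Plod2 1416687_at at 2 h and -0.0094 for Plod3 at 16 h. With weights they were 0.016 for Ero1a 1449324_at at 2 h, and -0.0073 at 16 h and -0.033 for 4 h minus 2 h for P4ha1 1426519_at. Without the 2 normoxic arrays they were 0.0078 for Plod1 and -0.024 for P4ha1 1426519_at at 16 h. When 1 array was left out, the values at 2 h ran from -0.136 to 0.183 (Ero1a 1419029_at), -0.273 to 0.054 (1419030_at), -0.21 to 0.0703 (1449324_at) and -0.081 to 0.163 (Plod2 1416687_at). At 16 h they ran from -0.024 to 0.375 (P4ha1 1426519_at), -0.104 to 0.099 (1452094_at), -0.153 to 0.0078 (Plod1), -0.031 to 0.136 (Plod2 1416686_at) and -0.026 to 0.054 (Plod3). The difference of effects at 4 h minus 2 h of P4ha1 1426519_at ran from -0.127 to 0.195, and those of P4hb from -0.113 to 0.0204 (2 h minus 0 h) and from -0.017 to 0.068 (16 h minus 4 h).

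Arrays give no read depth, and probe sets under 6.69 in both treatments, such as the second of Plod1, were not tested.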

Other observations

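Genes for the cofactors of the hydroxylases, vitamin C and iron, were followed as a small list. Of 5 tested, 1 was higher and 1 lower at both 0 h and 2 h, where 32.4% and 16.6% of all probe sets were changed. Gulo, the enzyme of the last step of ascorbate synthesis in mice, had means of 7.35 in hypoxic and 8.39 in normoxic retinas at 0 h (-1.05, adjusted p = 3.19e-07) and of 7.24 and 8.37 at 2 h (-1.13). Tfrc, the transferrin receptor that brings in iron, was higher at 0 h (0.71). At 2 h the ascorbate transporter Slc23a2 was higher (0.23, adjusted p = 0.0406), a call lost without any one of the 6 arrays (0.20 to 0.26).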
